A study of Mus musculus with 24 samples.

Results

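The genes described here are 46 genes of the interstitial matrix and of the fibroblasts, stellate cells and mural cells that make it, read in dispersed mouse islet cells. They were chosen by gene symbol, as the collagens, glycoproteins, proteoglycans, cross-linking enzymes, surface receptors and contractile proteins of these cells, and are 46 of the 41549 genes in the deposited table. The libraries came from wild-type mice, for which the study's methods give C57BL/6NRj animals of both sexes aged 12 to 14 weeks. Islets were freed with collagenase, picked by hand, dispersed with trypsin and transfected with 50 pmol of a control antisense oligonucleotide (Ctr) or of one against a 5' fragment of a glutamate tRNA (αGlu ASO). They next spent 48 h in palmitate (PA, 0.5 mM, bound to albumin) or in albumin alone (BSA), a time that the study states for this treatment scheme. Poly(A) RNA was sequenced in 24 stranded libraries. There were 6 of each combination of ASO and medium (Ctr BSA, αGlu BSA, Ctr PA, αGlu PA), and all 4 groups share the dispersion, the transfection and the albumin. The sample records split each group evenly over batch 1 (libraries up to S12) and batch 2 (from S13), with 3 libraries in either, and do not say what a batch is.

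Interstitial matrix is laid down by fibroblasts and, in the pancreas, by stellate cells, which are quiescent and desmin-positive in healthy tissue and turn into contractile, smooth muscle actin-positive myofibroblasts when activated. Fibrillar collagens form the load-bearing fibres, FACIT collagens and small proteoglycans coat them, fibrillins and fibulins build elastic microfibrils, and lysyl oxidases cross-link the whole. In islets these cells and the pericytes lie around the capillaries and in the thin capsule, and a few of them are carried along when islets are isolated.

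Before the values, the agent that separates the ASO groups and the upstream sequence of 4 of the genes are shown. The αGlu ASO, a locked nucleic acid inhibitor, and the target listed for it in the study's oligonucleotide table are given with paired bases in capitals. All 20 bases of the ASO pair with target bases 2 to 21 of 21, which checks the direction of the pair.
αGlu ASO: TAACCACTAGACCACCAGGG
Target: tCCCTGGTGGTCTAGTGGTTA
Of the 46 genes, 29 had a window in the RefSeq promoter table of build GRCm38.p6, and the 250 bases before the start in that table are printed 5' to 3' on the gene's strand for 4 whose results differ. Capitals mark 3 motifs wherever they stand on either strand, the CCAAT box, the TATA box (searched as TATAAA) and the TEAD motif (searched as GGAATG). Thbs2 (chr17:14694263-14694512, minus strand) had the largest fall with PA in αGlu cells, Rgs5 (chr1:169655251-169655500, plus strand) fell with PA under both ASOs, Col16a1 (chr4:130047590-130047839, plus strand) rose under both, and Col3a1 (chr1:45311288-45311537, plus strand) passed the test in neither.
Thbs2: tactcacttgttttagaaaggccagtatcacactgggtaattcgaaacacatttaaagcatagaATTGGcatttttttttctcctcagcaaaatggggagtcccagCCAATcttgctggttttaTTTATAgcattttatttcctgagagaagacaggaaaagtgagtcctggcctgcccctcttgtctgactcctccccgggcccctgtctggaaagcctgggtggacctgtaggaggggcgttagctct
Rgs5: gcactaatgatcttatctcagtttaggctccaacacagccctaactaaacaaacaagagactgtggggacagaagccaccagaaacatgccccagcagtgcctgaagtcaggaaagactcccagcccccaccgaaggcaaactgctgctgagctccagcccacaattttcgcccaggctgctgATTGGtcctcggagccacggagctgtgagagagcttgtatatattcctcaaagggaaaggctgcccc
Col16a1: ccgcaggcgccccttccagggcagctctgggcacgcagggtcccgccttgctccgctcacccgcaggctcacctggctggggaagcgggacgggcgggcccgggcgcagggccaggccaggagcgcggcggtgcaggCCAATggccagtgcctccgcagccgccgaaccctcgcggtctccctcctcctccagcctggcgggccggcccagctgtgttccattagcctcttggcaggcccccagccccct
Col3a1: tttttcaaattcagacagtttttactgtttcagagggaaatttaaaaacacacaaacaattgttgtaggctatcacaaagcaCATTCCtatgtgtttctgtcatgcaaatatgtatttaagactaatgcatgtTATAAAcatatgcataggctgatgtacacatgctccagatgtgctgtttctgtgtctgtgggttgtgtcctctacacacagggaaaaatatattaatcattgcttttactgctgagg
All 4 windows hold 0 bases of the gene's own exons in the GENCODE annotation, and the last 23 bases of the Col16a1 window lie inside the gene as the RefSeq gene table bounds it. CCAAT began 144 bases upstream of the start in Thbs2 and 113 bases upstream in Col16a1, on the gene's strand, so the letters stand in a gene that fell and in one that rose. Thbs2 held CCAAT and TATAAA on the opposite strand as well, Rgs5 held CCAAT on the opposite strand, 67 bases upstream, and Col3a1 held TATAAA 117 bases upstream and GGAATG on the opposite strand. CCAAT was found upstream of 11 of the 29 genes (37.9%) and in 33.8% of all 32851 windows. Here and below, a gene counts once if any of its windows holds the motif, whereas the background counts single windows. The shares are therefore not the same measure. TATAAA was found in 5 of the 29 (17.2%) and in 12.4% of all windows, and GGAATG in 5 (17.2%) and in 12.6%. These matches are a description of letters and not of binding. The Col16a1 window was 75.6% G or C, against 53.6% in Rgs5, 46.8% in Thbs2 and 35.2% in Col3a1.

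Total counts ran from 18214719 to 35001979 per library, and the 46 genes took 0.0293% to 0.4745% of them. A count of 0 allows up to 3 counts, for counting error only. On raw library totals that is 0.0857 to 0.165 CPM (counts scaled to a common library total) over the libraries. Counts were scaled by TMM, which corrects for composition, and CPM below are on that scale. There 3 counts can lie outside that range, as for Lum in S1 (0.193 CPM). With enough counts for the test were 44 of the 46 genes. Lum, a small collagen-binding proteoglycan, and Mfap4, a microfibril-associated glycoprotein, were not tested. Lum was at 0 in 10 of the 24 libraries, but αGlu BSA S18 held 400 counts, Ctr BSA S21 84 and αGlu PA S8 35. Of the genes often used to mark fibroblasts, Lum, Dcn and Pdgfra were low in these cells. With BSA, Dcn had a median of 1.26 CPM in Ctr and 1.77 CPM in αGlu cells, and Pdgfra 3.10 and 2.74 CPM. Other genes of the same cells were higher, with Ctr BSA medians of 62.6 CPM for Col1a1, 53.4 CPM for Col1a2, 36.3 CPM for Col3a1 and 28.3 CPM for Postn. In general terms, the study describes replicates of primary islet cells as preparations from separate animals, each divided over all treatments. The labels do not say which libraries share an animal, so the fit treats all 24 as separate, and the p-values measure the spread between these libraries.

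Levels of different genes were compared per length with the deposited TPM values. In Ctr BSA the 3 highest medians were those of Tagln (212 TPM, range 124 to 287), Thbs1 (127 TPM, range 86.9 to 355) and Fn1 (118 TPM, range 61.9 to 179), and those ranges overlap. Sparc (117 TPM) and Acta2 (115 TPM) followed, also within the same spread. Type I collagen was lower, at a median of 22.5 TPM for Col1a1 and 10.1 TPM for Col1a2, and type III collagen lower still, at 9.10 TPM for Col3a1. In Ctr PA the order was different, with Sparc (40.6 TPM), Vim (36.6 TPM) and Thbs1 (32.8 TPM) at the top, Tagln at place 5 with 23.01 TPM and Col16a1 at place 7 with 18.1 TPM. The TPM ratio of Col1a2 to Col1a1, the partner chains of type I collagen, had a median of 0.416 (0.277 to 0.462) in Ctr BSA. In Ctr PA it was 0.410 (0.230 to 0.841), a similar median with a wider range. In αGlu cells the medians were 0.416 with BSA and 0.505 with PA (5 libraries). The median TPM ratio of Col5a2 to Col1a2 was 3.77 (1.44 to 10.1) in Ctr BSA and 13.9 (2.69 to 30.3) in Ctr PA, ranges that overlap.

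The first comparison asks which of these genes differ with PA in cells given the control ASO. Summed over the 46 genes, the level was 2634 ± 709.6 CPM (SD, n = 6) with BSA and 693 ± 235 CPM (SD, n = 6) with PA, and every Ctr PA library (402 to 1074 CPM) lay below every Ctr BSA library (1891 to 3997 CPM). Of the 44 tested genes, 33 fell and 2 rose at an adjusted p below 0.05 (edgeR quasi-likelihood test, Benjamini-Hochberg over all 15916 tested genes). Over all genes tested, 14.5% were called lower and 15.5% higher. The median log2 fold change was -1.89 over the members and 0.01 over all tested genes. For 23 of the genes that fell, no PA library reached the lowest BSA library, against 2.86% of all tested genes that were lower without overlap. In bulk RNA of mixed islet cells, fewer cells of a type and less RNA per cell cannot be told apart, here and in what follows.

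**Figure D1:**
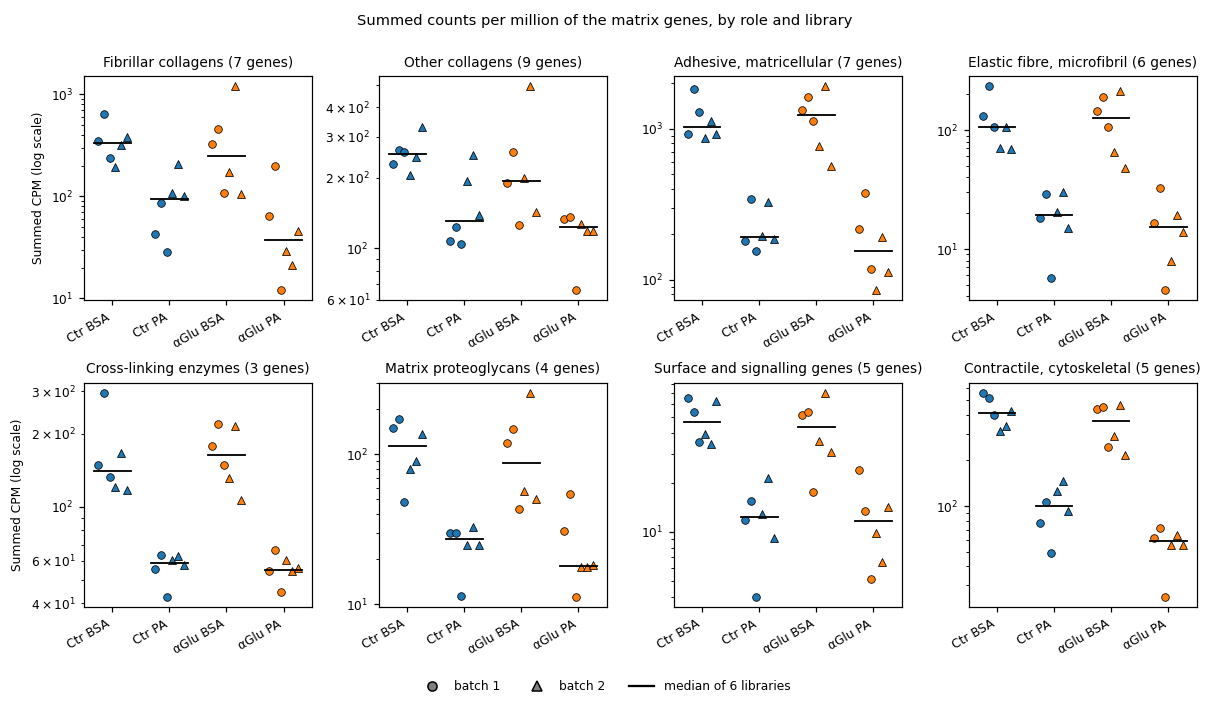
Summed CPM (log scale) of the genes of each role in every library of the 4 groups, with circles for batch 1, triangles for batch 2 and a line at the median of 6 libraries. The PA libraries lie wholly below the BSA libraries in the adhesive, elastic fibre, cross-linking and contractile panels. In the other panels the medians are lower with PA and some libraries overlap. In the fibrillar collagen panel 1 triangle of αGlu BSA (S18, 1196 CPM) stands far above the others.

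In αGlu cells the same question gave 34 genes that fell and 2 that rose, against 14.2% and 14.4% of all tested genes, with a median log2 fold change of -2.28 (0.01 over all tested genes). Summed levels were 2649.5 ± 1311 CPM (SD, n = 6) with BSA (1264 to 4822) and 526 ± 232 CPM (SD, n = 6) with PA (287 to 949). The groups did not overlap for 18 of the genes that fell, against 3.95% of all tested genes. Both PA comparisons are given side by side below, by the role of the genes, with all log2 fold changes as PA against BSA ± SE and adjusted p from edgeR.

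**Figure D2:**
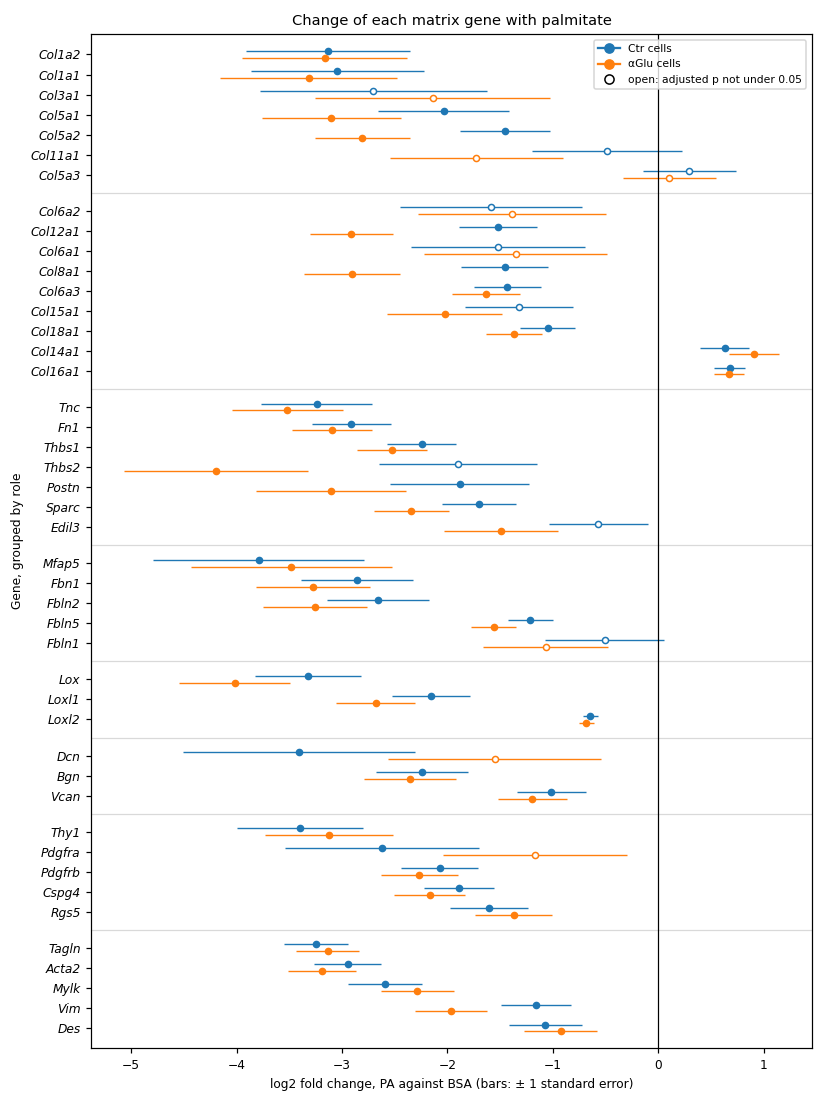
Log2 fold change with PA (± 1 SE) of each tested gene in Ctr (blue) and αGlu cells (orange), grouped by role, where open circles did not reach an adjusted p of 0.05. Nearly all points lie left of 0, from -4.20 (Thbs2, αGlu cells) upwards, and Col14a1 and Col16a1 lie right of it in both.

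Of the 7 fibrillar collagen genes, 4 fell with PA in Ctr and 4 in αGlu cells. Col1a1 encodes the α1 chain of type I collagen, the main fibre of connective tissue. In Ctr cells Col1a1 ranged from 27.2 to 187 CPM with BSA (median 62.6) and from 1.67 to 17.7 CPM with PA (median 7.698). The αGlu libraries held 12.05 to 241 CPM with BSA (median 51.5) and 0 to 42.2 CPM with PA (median 3.59). It fell in both (log2 fold change -3.04 ± 0.82, adjusted p = 0.00652 in Ctr, and -3.32 ± 0.84, adjusted p = 0.00415 in αGlu cells). Col1a2 encodes the partner chain. Col1a2 was at 19.1 to 145 CPM in Ctr BSA (median 53.4) and at 1.39 to 13.9 CPM in Ctr PA (median 5.54). In αGlu cells it was at 7.704 to 184 CPM with BSA (median 41.3) and at 1.29 to 38.3 CPM with PA (median 2.89). Col1a2 had a log2 fold change of -3.13 ± 0.78 in Ctr (adjusted p = 0.0036) and -3.16 ± 0.78 in αGlu cells (adjusted p = 0.00363). In Ctr cells no PA library reached the BSA libraries for either chain, whereas in αGlu cells S8 with PA (42.2 CPM of Col1a1) overlapped the BSA range and S12 had no count of Col1a1. The αGlu values moved with single libraries, to -4.70 for Col1a1 and -4.39 for Col1a2 without S8 and to -2.38 and -2.15 without S18.

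Type V collagen starts fibrils and sets their width. Ctr BSA libraries held 21.4 to 82.1 CPM of Col5a1 (median 35.6), and Ctr PA libraries 2.19 to 23.1 CPM (median 9.93). With the αGlu ASO, Col5a1 lay between 9.52 and 108 CPM in BSA (median 27.98) and between 0.681 and 13.8 CPM in PA (median 3.26). Col5a1 fell in both (log2 fold change -2.04 ± 0.62, adjusted p = 0.0158 in Ctr, and -3.10 ± 0.66, adjusted p = 0.000987 in αGlu cells), with overlapping libraries, and in αGlu cells the value was -3.81 without S8 and -2.48 without S18. The level of Col5a2 was 77.7 to 186 CPM (median 143) in Ctr BSA and 14.5 to 133 CPM (median 46.2) in Ctr PA. Its level in αGlu BSA was 51.7 to 198 CPM (median 104) and in αGlu PA 5.13 to 26.3 CPM (median 13.7). Col5a2 fell in both, with a log2 fold change of -1.46 ± 0.43 in Ctr (adjusted p = 0.0118) and -2.81 ± 0.45 in αGlu cells (adjusted p = 4.16e-05). The lowest Ctr BSA library and the highest Ctr PA library of Col5a2 overlapped, and the αGlu libraries did not. Col5a3, the third type V chain, did not pass in either comparison (log2 fold change 0.29 and 0.10).

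Col3a1, type III collagen of reticular fibres, varied widely between libraries. Counts of Col3a1 came to 7.27 to 55.3 CPM in Ctr BSA (median 36.3) and 1.52 to 12.3 CPM in Ctr PA (median 5.103). They came to 3.799 to 441 CPM in αGlu BSA (median 16.8) and 0.574 to 67.3 CPM in αGlu PA (median 3.003). The highest αGlu BSA library was S18, at 8.65 times the next. Its log2 fold change with PA was -2.70 ± 1.08 in Ctr (adjusted p = 0.0601) and -2.14 ± 1.12 in αGlu cells (adjusted p = 0.158), neither past the threshold. Col3a1 lies beside Col5a2 on chromosome 1 (45311538 to 45349706 and 45374331 to 45503282, GRCm38.p6), 24624 bases apart, yet Col5a2 had a highest αGlu BSA level of 198 CPM against 441 CPM for Col3a1. Col11a1, a minor fibril chain best known from cartilage, gave -0.49 ± 0.71 in Ctr and -1.73 ± 0.82 in αGlu cells, adjusted p = 0.642 and 0.119.

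Among the 9 other collagens, 4 fell in Ctr and 5 in αGlu cells, and 2 rose in both. Col12a1, a FACIT collagen on the surface of type I fibrils, fell with PA. For Col12a1, Ctr cells had 27.6 to 61.6 CPM in BSA (median 39.6) and 5.32 to 34.6 CPM in PA (median 13.6). For αGlu cells these were 23.5 to 55.3 CPM (median 31.6) and 1.08 to 7.95 CPM (median 4.599). With PA, Col12a1 changed by -1.52 ± 0.37 (log2) in Ctr cells and by -2.91 ± 0.40 in αGlu cells, adjusted p = 0.00289 and 6.61e-06. The Ctr groups overlapped and the αGlu groups did not. Col8a1 encodes a network collagen of vessel walls. In Ctr cells Col8a1 ranged from 8.698 to 16.8 CPM with BSA (median 14.2) and from 1.63 to 11.4 CPM with PA (median 5.05). The αGlu libraries held 3.24 to 33.3 CPM with BSA (median 10.2) and 0.789 to 2.55 CPM with PA (median 1.43). On the log2 scale Col8a1 changed by -1.46 ± 0.42 in Ctr cells (adjusted p = 0.0098) and by -2.91 ± 0.45 in αGlu cells (adjusted p = 3.46e-05). Again the libraries overlapped in Ctr and not in αGlu cells. Col18a1, a collagen of basement membrane zones and the precursor of endostatin, fell by 1.05 on the log2 scale in Ctr cells (adjusted p = 0.00378) and by 1.37 in αGlu cells (adjusted p = 0.000427).

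Type VI collagen, a trimer of different chains, forms beaded filaments around cells. Col6a3 fell in both comparisons (log2 fold change -1.43 ± 0.32, adjusted p = 0.00139 in Ctr, and -1.63 ± 0.32, adjusted p = 0.000425 in αGlu cells). Col6a1 and Col6a2 did not pass, at log2 fold changes of -1.52 and -1.59 in Ctr (adjusted p = 0.171 for both) and -1.35 and -1.39 in αGlu cells (adjusted p = 0.26 and 0.261). Col6a1 and Col6a2 lie 85161 bases apart on chromosome 10, and both were highest in αGlu BSA S18, at 76.2 and 59.2 CPM, where the αGlu BSA medians were 3.64 and 2.74 CPM. Col15a1, the other multiplexin, missed the threshold in Ctr (log2 fold change -1.32, adjusted p = 0.0551) and fell in αGlu cells (-2.03, adjusted p = 0.0068).

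Both genes that rose with PA are FACIT collagens, which bind to fibrils and do not form them. Col14a1 was at 5.97 to 29.2 CPM in Ctr BSA (median 9.61) and at 12.5 to 26.4 CPM in Ctr PA (median 20.5). In αGlu cells it was at 6.24 to 11.2 CPM with BSA (median 7.21) and at 11.9 to 17.6 CPM with PA (median 13.998). Col14a1 had a log2 fold change of 0.63 ± 0.23 in Ctr (adjusted p = 0.042) and 0.91 ± 0.24 in αGlu cells (adjusted p = 0.00556). The Ctr libraries overlapped, since S21 with BSA had the highest value of all at 29.2 CPM, and every αGlu PA library lay above every αGlu BSA library. Ctr BSA libraries held 20.98 to 41.3 CPM of Col16a1 (median 28.4), and Ctr PA libraries 31.4 to 65.7 CPM (median 41.8). With the αGlu ASO, Col16a1 lay between 20.6 and 41.4 CPM in BSA (median 26.8) and between 29.05 and 58.2 CPM in PA (median 49.4). Col16a1 rose in both, with a log2 fold change of 0.68 ± 0.15 in Ctr (adjusted p = 0.00108) and 0.67 ± 0.15 in αGlu cells (adjusted p = 0.00117). Col16a1 overlapped in both. In TPM, Col14a1 moved from place 30 of 46 in Ctr BSA to place 12 in Ctr PA.

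**Figure D3:**
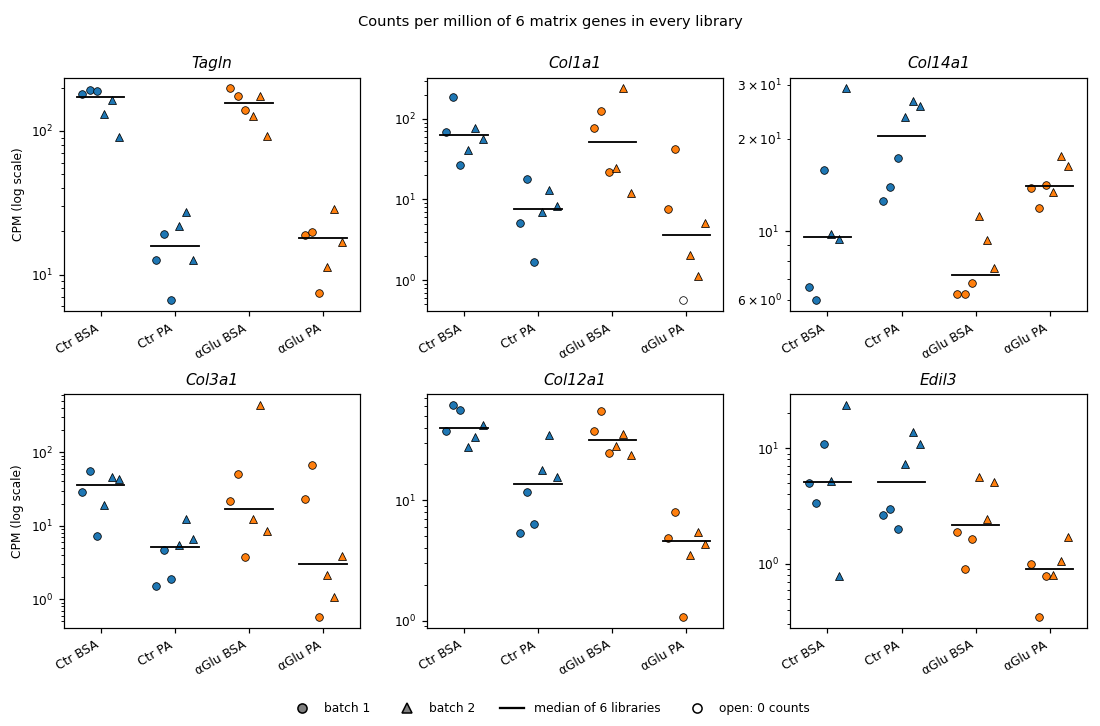
CPM (log scale) of Tagln, Col1a1, Col14a1, Col3a1, Col12a1 and Edil3 in every library, with circles for batch 1, triangles for batch 2 and a line at the median of 6 libraries. Tagln separates BSA from PA in all libraries, Col14a1 has higher medians with PA, and Col3a1 has single high libraries at 441 CPM in αGlu BSA and 67.3 CPM in αGlu PA.

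Of the 7 adhesive and matricellular glycoproteins, 5 fell in Ctr and all 7 in αGlu cells. Fn1, fibronectin, on which cells assemble new matrix, was the most abundant of them in CPM. The level of Fn1 was 346 to 712 CPM (median 493) in Ctr BSA and 29.6 to 131 CPM (median 65.6) in Ctr PA. Its level in αGlu BSA was 259.9 to 713 CPM (median 657) and in αGlu PA 24.9 to 111 CPM (median 60.1). With PA, Fn1 changed by -2.91 ± 0.37 (log2) in Ctr cells and by -3.10 ± 0.38 in αGlu cells, adjusted p = 3.19e-06 and 1.47e-06. No PA library overlapped the BSA libraries. Tnc, tenascin C, is made in healing tissue. Counts of Tnc came to 26.4 to 82.9 CPM in Ctr BSA (median 53.6) and 1.32 to 12.9 CPM in Ctr PA (median 5.81). They came to 22.6 to 237 CPM in αGlu BSA (median 59.98) and 1.18 to 12.2 CPM in αGlu PA (median 6.31). On the log2 scale Tnc changed by -3.24 ± 0.53 in Ctr cells (adjusted p = 5.52e-05) and by -3.52 ± 0.53 in αGlu cells (adjusted p = 2.09e-05). The groups were again apart in both comparisons, and without S18 the αGlu value was -2.88.

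Thbs1 and Thbs2 encode thrombospondins, which bind cells, collagen and latent TGFβ. For Thbs1, Ctr cells had 195 to 734 CPM in BSA (median 302) and 33.2 to 192 CPM in PA (median 67.7). For αGlu cells these were 169 to 613 CPM (median 349) and 20.3 to 176 CPM (median 60.7). Thbs1 had a log2 fold change of -2.25 ± 0.32 in Ctr (adjusted p = 1.34e-05) and -2.52 ± 0.33 in αGlu cells (adjusted p = 3.82e-06). The Ctr groups were apart, while αGlu PA S8 (176 CPM) overlapped the αGlu BSA range. In Ctr cells Thbs2 ranged from 1.5003 to 11.4 CPM with BSA (median 5.17) and from 0.0709 to 2.54 CPM with PA (median 1.45). The αGlu libraries held 0.802 to 27.9 CPM with BSA (median 2.56) and 0 to 0.855 CPM with PA (median 0.253). Thbs2 missed the threshold in Ctr cells (log2 fold change -1.90 ± 0.75, adjusted p = 0.0582) and had the largest fall of all members in αGlu cells (-4.20 ± 0.87, adjusted p = 0.00077). αGlu BSA S18 held 27.9 CPM of it, and without S18 the αGlu value was -3.004.

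Postn encodes periostin of activated fibroblasts. Postn was at 26.3 to 64.1 CPM in Ctr BSA (median 28.3) and at 3.03 to 24.1 CPM in Ctr PA (median 10.3). In αGlu cells it was at 9.38 to 196 CPM with BSA (median 24.7) and at 0.968 to 15.98 CPM with PA (median 3.53). Postn fell in both, with a log2 fold change of -1.88 ± 0.66 in Ctr (adjusted p = 0.0333) and -3.10 ± 0.71 in αGlu cells (adjusted p = 0.00185). The Ctr groups were apart and the αGlu groups overlapped, with a value of -3.83 without S8 and -2.12 without S18. Sparc, a collagen-binding matricellular protein that many cells make, fell by 1.70 in Ctr (adjusted p = 0.000654) and by 2.34 in αGlu cells (adjusted p = 2.51e-05) on the log2 scale, with no overlap. Edil3, an integrin-binding glycoprotein, did not pass in Ctr (log2 fold change -0.57, adjusted p = 0.384) and fell in αGlu cells (-1.49, adjusted p = 0.0405).

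Among the 5 tested elastic fibre genes, 4 fell in each comparison. Fbn1 encodes fibrillin, the core of microfibrils. Ctr BSA libraries held 20.5 to 90.3 CPM of Fbn1 (median 31.4), and Ctr PA libraries 1.63 to 10.5 CPM (median 5.59). With the αGlu ASO, Fbn1 lay between 13.7 and 93.5 CPM in BSA (median 35.4) and between 1.11 and 14.8 CPM in PA (median 3.14). With PA, Fbn1 changed by -2.86 ± 0.53 (log2) in Ctr cells and by -3.27 ± 0.54 in αGlu cells, adjusted p = 0.000242 and 6.72e-05. The Ctr groups did not overlap, and αGlu PA S8 (14.8 CPM) overlapped the αGlu BSA range, with an αGlu value of -3.86 without it. Fbln2, a fibulin that joins elastic and basement membrane matrix, was apart in both. The level of Fbln2 was 30.8 to 122 CPM (median 62.9) in Ctr BSA and 1.91 to 18.7 CPM (median 9.24) in Ctr PA. Its level in αGlu BSA was 27.5 to 99.05 CPM (median 79.4) and in αGlu PA 1.11 to 12.9 CPM (median 7.15). On the log2 scale Fbln2 changed by -2.66 ± 0.48 in Ctr cells (adjusted p = 0.000192) and by -3.26 ± 0.49 in αGlu cells (adjusted p = 2.41e-05). Mfap5, a microfibril glycoprotein, had low counts. Counts of Mfap5 came to 0.702 to 7.29 CPM in Ctr BSA (median 2.79) and 0 to 0.656 CPM in Ctr PA (median 0.219). They came to 0.592 to 20.5 CPM in αGlu BSA (median 2.14) and 0.105 to 2.28 CPM in αGlu PA (median 0.198). Mfap5 had a log2 fold change of -3.79 ± 1.00 in Ctr (adjusted p = 0.00576) and -3.48 ± 0.95 in αGlu cells (adjusted p = 0.00777). The Ctr groups were apart, the αGlu groups overlapped, and the call in αGlu cells was lost without S18, at -1.66, and the value was -4.73 without S8. Fbln5, needed to assemble elastic fibres, fell by 1.21 in Ctr (adjusted p = 0.000118) and by 1.56 in αGlu cells (adjusted p = 6.69e-06) in log2, and Fbln1 did not pass in either (-0.51 and -1.07).

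All 3 cross-linking enzymes fell in both comparisons, but by different amounts. Lox, lysyl oxidase, starts collagen and elastin cross-links. For Lox, Ctr cells had 33.3 to 202 CPM in BSA (median 65.4) and 0.996 to 18.1 CPM in PA (median 6.16). For αGlu cells these were 26.6 to 135 CPM (median 80.95) and 1.399 to 17.4 CPM (median 2.84). Lox fell in both, with a log2 fold change of -3.32 ± 0.50 in Ctr (adjusted p = 2.24e-05) and -4.02 ± 0.53 in αGlu cells (adjusted p = 3.83e-06). In Ctr cells Loxl1 ranged from 6.86 to 17.6 CPM with BSA (median 12.2) and from 1.196 to 4.21 CPM with PA (median 2.403). The αGlu libraries held 4.64 to 20.3 CPM with BSA (median 11.9) and 0.645 to 3.203 CPM with PA (median 1.77). With PA, Loxl1 changed by -2.16 ± 0.37 (log2) in Ctr cells and by -2.68 ± 0.37 in αGlu cells, adjusted p = 9.35e-05 and 8.68e-06. For Lox and Loxl1, the latter acting mainly on elastin, no PA library overlapped a BSA library, and the αGlu value of Lox was -4.76 without S8. Loxl2, which cross-links type IV collagen, had the smallest fall of the 3, from a median of 76.4 to 45.5 CPM in Ctr (log2 fold change -0.65 ± 0.07, adjusted p = 6.20e-07) and from 72.8 to 48.1 CPM in αGlu cells (log2 fold change -0.68 ± 0.07, adjusted p = 3.15e-07). The BSA and PA libraries did not overlap in either comparison.

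Of the 3 tested proteoglycans, 3 fell in Ctr and 2 in αGlu cells. Bgn, biglycan, is a small proteoglycan that binds collagen. Bgn was at 42.5 to 155 CPM in Ctr BSA (median 96.3) and at 8.33 to 27.9 CPM in Ctr PA (median 22.4). In αGlu cells it was at 36.8 to 204 CPM with BSA (median 79.5) and at 7.03 to 45.2 CPM with PA (median 14.5). On the log2 scale Bgn changed by -2.24 ± 0.43 in Ctr cells (adjusted p = 0.000375) and by -2.35 ± 0.44 in αGlu cells (adjusted p = 0.000251). The Ctr groups were apart, and αGlu PA S8 (45.2 CPM) overlapped. Dcn, decorin, the classical fibroblast proteoglycan, was scarce. Ctr BSA libraries held 0.248 to 12.3 CPM of Dcn (median 1.26), and Ctr PA libraries 0.0706 to 0.7797 CPM (median 0.259). With the αGlu ASO, Dcn lay between 0.276 and 13.5 CPM in BSA (median 1.77) and between 0.105 and 3.91 CPM in PA (median 0.332). It fell in Ctr (log2 fold change -3.41 ± 1.10, adjusted p = 0.0207) with overlapping libraries, and the call was lost without Ctr BSA S21 (log2 fold change -2.10). In αGlu cells Dcn did not pass (log2 fold change -1.55 ± 1.01, adjusted p = 0.266). Dcn and Lum are neighbours on chromosome 10, 47337 bases apart, and Lum was also highest in αGlu BSA S18. Vcan, a large hyaluronan-binding proteoglycan, fell in both (log2 fold change -1.02 and -1.197, adjusted p = 0.02 and 0.00734).

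The 5 surface and signalling genes all fell in Ctr cells, and 4 of them in αGlu cells. Pdgfrb, the PDGF receptor of pericytes and stellate cells, binds PDGF-B. The level of Pdgfrb was 11.2 to 22.7 CPM (median 15.9) in Ctr BSA and 1.39 to 6.87 CPM (median 3.78) in Ctr PA. Its level in αGlu BSA was 4.85 to 26.6 CPM (median 14.8) and in αGlu PA 1.64 to 5.01 CPM (median 3.45). Pdgfrb had a log2 fold change of -2.08 ± 0.36 in Ctr (adjusted p = 0.000127) and -2.27 ± 0.37 in αGlu cells (adjusted p = 5.15e-05). Cspg4 encodes NG2, a surface proteoglycan of pericytes. Counts of Cspg4 came to 11.4 to 26.2 CPM in Ctr BSA (median 16.3) and 1.08 to 9.96 CPM in Ctr PA (median 4.22). They came to 5.75 to 18.5 CPM in αGlu BSA (median 13.5) and 1.76 to 5.64 CPM in αGlu PA (median 2.903). Cspg4 fell in both, with a log2 fold change of -1.89 ± 0.33 in Ctr (adjusted p = 0.000117) and -2.17 ± 0.34 in αGlu cells (adjusted p = 3.18e-05). For both, Ctr PA lay wholly below Ctr BSA. Pdgfra, the PDGF receptor of fibroblasts, was low in most libraries. For Pdgfra, Ctr cells had 0.908 to 5.58 CPM in BSA (median 3.104) and 0.199 to 1.49 CPM in PA (median 0.415). For αGlu cells these were 0.276 to 9.29 CPM (median 2.74) and 0 to 10.1 CPM (median 0.267). It fell in Ctr (log2 fold change -2.62 ± 0.92, adjusted p = 0.0336), a call that ended when S3, S5, S11, S15, S17 or S21 was left out, and did not pass in αGlu cells (log2 fold change -1.17 ± 0.87, adjusted p = 0.341), where S4 with PA held 10.1 CPM. The difference between these responses was not called. Thy1, a surface glycoprotein of fibroblasts and neurons, fell to near the level of a few counts. In Ctr cells Thy1 ranged from 0.829 to 5.33 CPM with BSA (median 3.39) and from 0 to 0.765 CPM with PA (median 0.263). The αGlu libraries held 1.104 to 4.69 CPM with BSA (median 2.04) and 0.0382 to 0.8105 CPM with PA (median 0.181). With PA, Thy1 changed by -3.40 ± 0.60 (log2) in Ctr cells and by -3.12 ± 0.60 in αGlu cells, adjusted p = 0.000138 and 0.000392. The groups did not overlap in either comparison. Rgs5, a pericyte regulator of G-protein signalling, fell by 1.61 in Ctr (adjusted p = 0.00201) and by 1.37 in αGlu cells (adjusted p = 0.00619) in log2.

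All 5 contractile and cytoskeletal genes fell in both comparisons. Tagln, transgelin, a calponin-like protein of smooth muscle and myofibroblasts, had the smallest adjusted p of all members. Tagln was at 91.2 to 194 CPM in Ctr BSA (median 172) and at 6.62 to 27.1 CPM in Ctr PA (median 15.9). In αGlu cells it was at 92.7 to 199 CPM with BSA (median 157) and at 7.42 to 28.8 CPM with PA (median 17.9). On the log2 scale Tagln changed by -3.25 ± 0.30 in Ctr cells (adjusted p = 3.63e-08) and by -3.14 ± 0.30 in αGlu cells (adjusted p = 5.80e-08). Acta2, smooth muscle actin, the usual sign of stellate cell activation, was next. Ctr BSA libraries held 66.9 to 171 CPM of Acta2 (median 90.1), and Ctr PA libraries 4.26 to 20.5 CPM (median 15.6). With the αGlu ASO, Acta2 lay between 49.1 and 147 CPM in BSA (median 91.95) and between 7.67 and 12.9 CPM in PA (median 9.87). Acta2 had a log2 fold change of -2.94 ± 0.32 in Ctr (adjusted p = 2.90e-07) and -3.19 ± 0.32 in αGlu cells (adjusted p = 1.52e-07). Mylk encodes the kinase of the myosin light chain. The level of Mylk was 3.84 to 13.5 CPM (median 10.9) in Ctr BSA and 1.08 to 2.197 CPM (median 1.63) in Ctr PA. Its level in αGlu BSA was 4.25 to 16.04 CPM (median 9.03) and in αGlu PA 0.6096 to 3.36 CPM (median 1.71). Mylk fell in both, with a log2 fold change of -2.59 ± 0.35 in Ctr (adjusted p = 6.67e-06) and -2.29 ± 0.35 in αGlu cells (adjusted p = 2.73e-05). For Tagln, Acta2 and Mylk every PA library lay below every BSA library in both comparisons. Des, desmin, the filament of muscle and of quiescent stellate cells, fell less, by 1.07 and by 0.93 (adjusted p = 0.0218 and 0.0469), with overlap. Vim, vimentin, the filament of mesenchymal cells, fell by 1.16 in Ctr (adjusted p = 0.00987) and by 1.97 in αGlu cells (adjusted p = 0.000123) in log2, with overlap in Ctr cells.

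**Figure D4:**
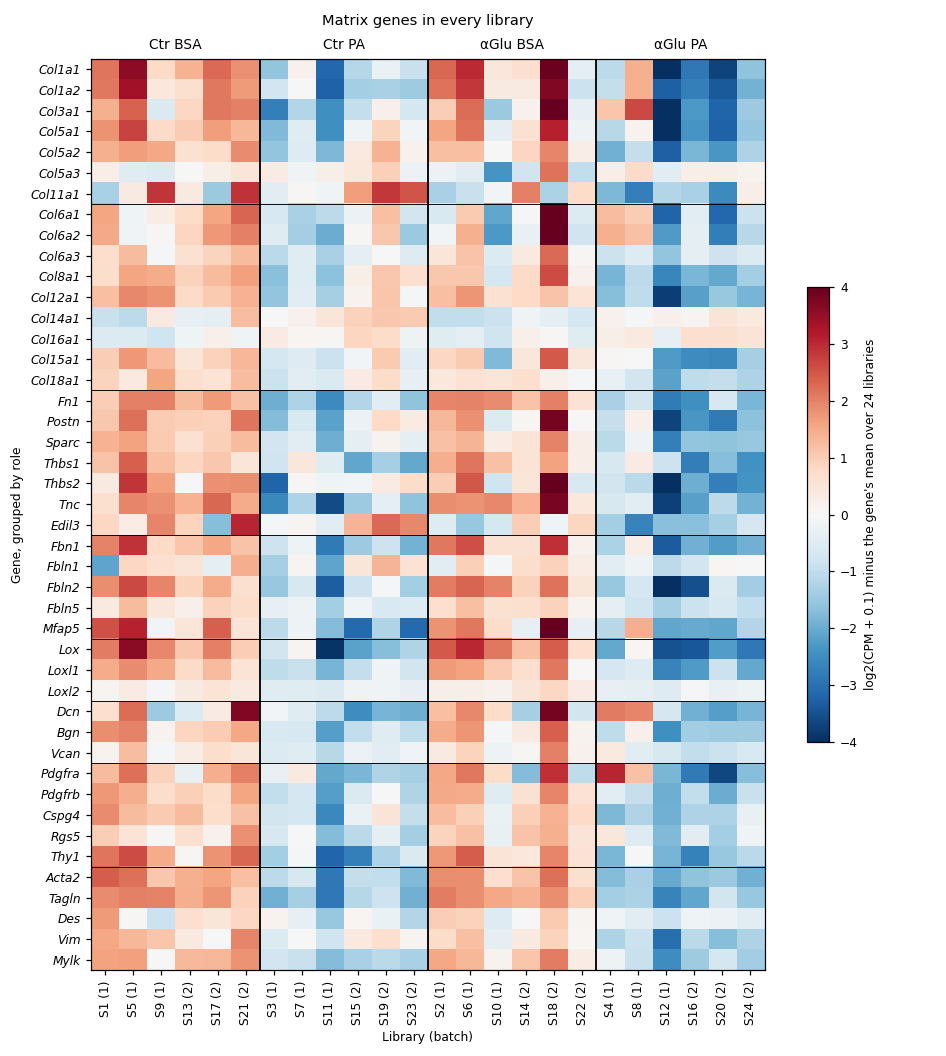
Each tested gene in each library as log2(CPM + 0.1) minus the gene's mean over 24 libraries, with red above and blue below that mean, ordered by group and batch (in brackets). The BSA groups are mostly red and the PA groups mostly blue, S18 is the reddest column (highest of its group for 30 of 44 genes), and S11 and S12 are the bluest PA columns (lowest for 31 of 44 genes each).

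Within the batches, 38 of the 44 genes were lower with PA in both batches in Ctr cells and 36 in αGlu cells. The Ctr values were nearer 0 in batch 2 for several collagens, at -0.45 for Col5a2 (-2.74 in batch 1), -0.61 for Col12a1 (-2.73) and -0.62 for Col8a1 (-2.50), and similar in both for Col1a2 (-3.26 in batch 1 and -2.98 in batch 2). In αGlu cells the values nearer 0 were in batch 1 for Col15a1 (-0.87, and -3.56 in batch 2) and Col3a1 (0.26 and -6.04). The collagens named for Ctr cells did not all follow this in αGlu cells. Mean Col12a1 went from 39.1 (BSA) to 4.64 CPM (PA) in batch 1 and from 28.9 to 4.44 CPM in batch 2. For Col5a2 these were 95.02 to 14.92 and 116.8 to 15.16 CPM, and for Col8a1 8.65 to 1.58 and 16.2 to 1.56 CPM. Whether either PA response differed between the batches was not tested. Fitted on batch 2 alone, 17 members were called with PA in Ctr cells, against 28 on batch 1 alone. In αGlu cells these counts were 36 and 24. The share of all tested genes called in these fits is not given, so the counts do not set the members apart from other genes. In αGlu cells the libraries S4 and S8 of batch 1 were the highest with PA for 13 and 20 of the 44 members, and S18 of batch 2 was the highest with BSA for 30. Without S4, S8 and S18, a choice made after seeing the data, 39 members were called in Ctr and 35 in αGlu cells, again without that share.

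Other genes of the same cells and of the same pathway were read from lists written for this purpose. Of 14 tested further pericyte and smooth muscle genes, 13 fell with PA in Ctr cells and 11 in αGlu cells (median log2 fold change -1.66 and -1.94). Among them Cnn1, calponin, had a log2 fold change of -3.70 ± 0.42 in Ctr cells (adjusted p = 5.43e-07). Of 30 further fibroblast genes, 17 and 15 fell (median -1.62 and -1.45), with Ccn2, a matricellular target of TGFβ, at -2.07 ± 0.21 and -2.41 ± 0.21. The PDGF ligands Pdgfb and Pdgfd fell in Ctr cells as well (log2 fold change -1.84 and -1.83). Of the 4 ligands, 3 fell and 1 rose in each comparison, the latter being Pdgfa in αGlu cells (log2 fold change 0.33, adjusted p = 0.0096). The collagen folding and processing machinery, which every secretory cell uses in part, was read as well. In it 7 of 22 genes fell and 1 rose in each comparison, with medians of -0.12 and -0.14, and its summed level was 1792 to 2380 CPM in Ctr BSA and 1807 to 2457 CPM in Ctr PA. The genes of it that fell included Pcolce, Adamts2 and Plod2 in Ctr cells (log2 fold change -2.09, -2.15 and -1.37). Their products aid the trimming of procollagen, trim it or modify it.

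Markers of other cell types moved with PA by different amounts, and their part in the results above was not tested. Endothelial markers fell for 1 of 12 genes in each comparison, with medians of -0.60 and -0.59 and summed levels of 31.7 to 98.8 CPM in Ctr BSA and 25.1 to 104 CPM in αGlu BSA, against 20.4 to 82.5 CPM in Ctr PA and 17.7 to 79.9 CPM in αGlu PA. Macrophage markers fell for 8 of 11 in Ctr and for 1 of 11 in αGlu cells, with summed levels of 78.6 to 377 CPM in Ctr BSA and 90.7 to 176 CPM in αGlu BSA, against 84.4 to 129 CPM in Ctr PA and 80.5 to 139 CPM in αGlu PA. Acinar markers fell for 9 and for 8 of 12 (medians -1.14 and -1.02), and ductal markers for 3 of 10 in each. Beta cell markers fell for 3 and rose for 3 of 10 in Ctr cells, and fell for 2 and rose for 3 in αGlu cells, with a summed level of 87357 to 135210 CPM in Ctr BSA and 88045 to 152140 CPM in αGlu BSA, against 84236 to 131960 CPM in Ctr PA and 84084 to 136610 CPM in αGlu PA. Of the mesothelial list, 4 of 8 genes were tested, of which 2 fell in each comparison and 1 rose in αGlu cells. Alpha, delta and PP cell markers fell for 2 and for 1 of 7.

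The next comparison asks what the αGlu ASO did without PA. At an adjusted p below 0.05, 0 of the 44 genes were called by edgeR and 0 by DESeq2, with 4 and 3 at an unadjusted p below 0.05. Over all 15916 tested genes, edgeR called 0 and DESeq2 8, and 461 (2.9%) and 470 had an unadjusted p below 0.05. Past the study's own threshold, which asks for a change of more than 1 in either direction (log2) and an unadjusted p under 0.05, were 2 lower members, against 0.641% of all tested genes. The median log2 fold change of the members was 0.03. Edil3 ranged from 0.781 to 23.7 CPM in Ctr BSA (median 5.07) and from 0.902 to 5.601 CPM in αGlu BSA (median 2.16). The log2 fold change of Edil3 was -1.65 ± 0.49 (adjusted p = 0.651), and the groups overlapped. Col11a1 ranged from 0.322 to 8.77 CPM in Ctr BSA (median 1.43) and from 0.388 to 4.73 CPM in αGlu BSA (median 0.776). Col11a1 gave -1.61 ± 0.73 (adjusted p = 1), and its unadjusted p rose above 0.05 without S2, S6, S9, S18, S21 or S22, with a value of -0.58 without S9. Past the threshold was 1 member without S2, S6, S9, S21 or S22. Col14a1 was the other gene of the 3 smallest p, at -0.68 ± 0.24.

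The Schwann and enteric glia markers stood low beside these genes. All 13 tested markers had a negative log2 fold change for αGlu against Ctr in BSA, with a median of -2.08, and 8 of them passed the study's threshold. Their summed level was 125 to 268 CPM in Ctr BSA and 119.6 to 163.6 CPM in αGlu BSA, against 156.5 to 207 CPM in Ctr PA and 127 to 157 CPM in αGlu PA, and no marker was at 0 in a whole group. Cdh19, a cadherin of Schwann cell precursors, ranged from 0.368 to 20.1 CPM (median 2.82) in Ctr BSA and from 0.253 to 3.39 CPM (median 0.572) in αGlu BSA. In Ctr BSA the same libraries, S9 and S21, held the highest Edil3 (10.9 and 23.7 CPM), Col11a1 (8.63 and 8.77 CPM) and Cdh19 (15.1 and 20.1 CPM). S17 held the lowest of all 3 genes in that group (0.781, 0.322 and 0.368 CPM). Of 11 tested macrophage markers, 10 were also lower with αGlu in BSA, with a median of -0.94. Of them 2 passed the study's threshold and 0 were called after adjustment by edgeR. The part of glia or macrophages in the difference of Edil3 and Col11a1 was not tested.

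Under PA, the αGlu ASO was again compared with Ctr. No member passed an adjusted p of 0.05 in edgeR (0 of 44, with 9 at an unadjusted p below 0.05), and 2 did in DESeq2, Edil3 (adjusted p = 0.00465) and Col12a1 (adjusted p = 0.0337). Of all tested genes, 0 were called by edgeR and 30 by DESeq2, with 538 (3.38%) and 566 at an unadjusted p below 0.05. Past the study's threshold were 7 members, all lower with αGlu, against 0.773% of all tested genes. The median log2 fold change of all members was -0.24, with 29 below 0 and 15 above. For 2 members, Edil3 and Vim, no αGlu library reached a Ctr library, against 0.163% of all tested genes.

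Edil3 ranged from 1.99 to 13.8 CPM in Ctr PA (median 5.09) and from 0.347 to 1.69 CPM in αGlu PA (median 0.905). Its log2 fold change was -2.57 ± 0.54 (adjusted p = 0.252). Vim ranged from 35.9 to 98.6 CPM in Ctr PA (median 64.9) and from 7.53 to 34.5 CPM in αGlu PA (median 26.4). Vim gave -1.43 ± 0.34 (adjusted p = 0.299). Every αGlu library was below every Ctr library for both genes. Col12a1 ranged from 5.32 to 34.6 CPM in Ctr PA (median 13.6) and from 1.08 to 7.95 CPM in αGlu PA (median 4.599). Col12a1 gave -1.73 ± 0.40 (adjusted p = 0.299), and its groups overlapped, S8 being the highest αGlu library. Col5a2 ranged from 14.5 to 133 CPM in Ctr PA (median 46.2) and from 5.13 to 26.3 CPM in αGlu PA (median 13.7). Col8a1 ranged from 1.63 to 11.4 CPM in Ctr PA (median 5.05) and from 0.789 to 2.55 CPM in αGlu PA (median 1.43). Col5a2 and Col8a1 gave -1.72 ± 0.44 and -1.66 ± 0.46 (adjusted p = 0.354 and 0.443), and their groups overlapped. Col11a1 ranged from 0.7797 to 8.38 CPM in Ctr PA (median 2.42) and from 0.0772 to 1.29 CPM in αGlu PA (median 0.313). Thbs2 ranged from 0.0709 to 2.54 CPM in Ctr PA (median 1.45) and from 0 to 0.855 CPM in αGlu PA (median 0.253). Col11a1 gave -2.85 ± 0.81 and Thbs2 -1.91 ± 0.89, adjusted p = 0.488 and 0.993, also with overlap, and Thbs2 lost its unadjusted call without S7, S11, S12, S16, S19, S20, S23 or S24. Without S8, 12 members passed the study's threshold.

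The glia markers were low here too, negative for 11 of 13 genes with a median of -2.33, and 8 of them passed the study's threshold. Cdh19 ranged from 0.851 to 11.8 CPM (median 3.62) in Ctr PA and from 0 to 0.846 CPM (median 0.24) in αGlu PA. Macrophage markers stood the other way, with all 11 tested genes above 0, a median of 0.86 and 3 past the study's threshold, 0 of them after adjustment by edgeR. The part of either list in the members' values was not tested. Between the ASOs under PA, the contractile genes included values of 0.05 ± 0.30 for Tagln and -0.46 ± 0.32 for Acta2, and type I collagen -0.05 ± 0.85 for Col1a1 and 0.25 ± 0.80 for Col1a2. Dcn, Col3a1 and Pdgfra gave positive values of 1.91 ± 1.08, 1.83 ± 1.15 and 1.53 ± 0.93, none past the threshold, and their highest αGlu PA libraries were S4 or S8.

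Whether the PA response differed between the ASOs was tested as an interaction, in which the same libraries enter both responses. At an adjusted p below 0.05, 0 of 44 members were called by edgeR and 0 by DESeq2, with 3 and 4 at an unadjusted p below 0.05. Of all tested genes, both tools called 0, with 332 (2.09%) and 340 at an unadjusted p below 0.05. Past the study's threshold were 3, all with a larger fall in αGlu cells, against 0.226% of all tested genes. They were Col12a1 (-1.39 ± 0.53), Col8a1 (-1.45 ± 0.61) and Col5a2 (-1.35 ± 0.60), each with an adjusted p of 0.999. None of the 3 passed without Ctr PA S19, which held the highest Ctr PA level of each, 1 member passed without αGlu PA S20 and 5 without αGlu PA S8. In batch 1 alone the values were -0.35, 0.04 and 0.06. The macrophage markers differed in the other direction, at a median of 2.28 with 7 of 11 past the study's threshold (0 after adjustment by edgeR). Their medians for αGlu against Ctr were -0.94 in BSA and 0.86 in PA, and their part was not tested.

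Between the batches, 2 members were lower and 5 higher in batch 2 at an adjusted p below 0.05, against 25.4% and 26.1% of all tested genes. Thbs1 and Lox were lower in batch 2 (log2 fold change -1.27 ± 0.23 and -1.16 ± 0.34, adjusted p = 4.35e-05 and 0.00636). Loxl2, Col16a1, Col14a1, Edil3 and Col11a1 were higher (0.30, 0.48, 0.59, 1.27 and 1.43), of which Col11a1 lost its call without S2, S3, S6, S7, S11, S14, S19, S21 or S24. Without αGlu BSA S18, 11 members were called. The acinar markers were all 12 lower in batch 2, with a median of -4.44, and the beta cell markers all 10 higher, with a median of 0.54.

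The αGlu effect under PA itself was set against batch in a fit with each group in each batch. No member reached an adjusted p of 0.05 by edgeR (0 of 44, with 9 at an unadjusted p below 0.05), the test not having been run in DESeq2. Nor did any of all tested genes (0, with 359 or 2.26% at an unadjusted p below 0.05). Past the study's threshold were 9, all more negative in batch 2, against 0.829% of all tested genes. A negative difference was found for 41 of 44 members (median -1.02, against -0.01 over all tested genes). Without S4, S8 and S18, a choice made after seeing the data, the members' median changed sign. That fit leaves S12 as the single αGlu PA library of batch 1. In batch 1 Col3a1 was at 1.52 to 4.70 CPM in Ctr PA and at 0.574 to 67.3 CPM in αGlu PA, and in batch 2 at 5.50 to 12.3 and 1.08 to 3.87 CPM. The difference for Col3a1 was -5.28 ± 2.00. Col5a2 was at 14.5 to 35.5 CPM in Ctr PA and 5.13 to 26.3 CPM in αGlu PA of batch 1, and at 56.985 to 133 and 10.01 to 21.4 CPM in batch 2, a difference of -1.91 ± 0.75. Thus in batch 2 no αGlu PA library of Col5a2 reached a Ctr PA library, and in batch 1 they overlapped. The other members were Col15a1 (-2.71 ± 0.96), Col12a1 (-1.58 ± 0.64), Postn (-3.16 ± 1.34), Col5a1 (-3.01 ± 1.28), Col18a1 (-1.10 ± 0.49), Col8a1 (-1.89 ± 0.84) and Col6a2 (-3.43 ± 1.64). Without αGlu PA S8 or Ctr PA S19, 2 members passed the study's threshold, without S3 4, without S11 or S16 5, and without S12 15. Without S8 the values were -3.96 for Col3a1, -1.24 for Col5a2, -0.99 for Col12a1, -2.23 for Postn and -1.97 for Col5a1. Without S7 they were -5.96 for Col3a1, -3.76 for Postn and -3.75 for Col5a1, and that of Col6a2 was -2.65 without S19 and -4.07 without S16.

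**Figure D5:**
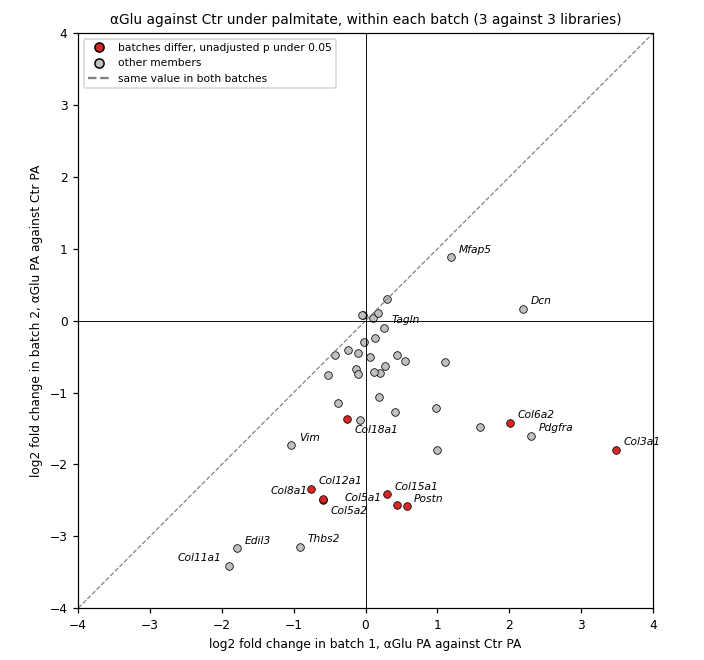
Log2 fold change of αGlu PA against Ctr PA within batch 1 (x axis) and batch 2 (y axis) for the 44 tested genes, with 3 libraries of each group in each batch, a dashed line where both are equal, and red for the 9 genes whose difference had an unadjusted p below 0.05. Of the 44 points, 41 lie below the line, and Edil3 (-1.79 and -3.17), Vim (-1.03 and -1.73) and Col11a1 (-1.90 and -3.41) are negative in both batches.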

How the data were processed

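Total RNA was purified with a miRNeasy micro kit, made into libraries with an Illumina stranded mRNA kit and read on an AVITI or NovaSeq instrument, per the labels and the study's methods. Reads were assigned to genes by the authors in QIAGEN's RNA-seq Analysis Portal. The build in the submitters' processing notes is GRCm38. For the aligner and for the use of strand in counting, the sources used here give nothing. The deposited table holds, per library, the count of exon reads of each gene, and RPKM and TPM values that the authors scaled per kilobase of exon. A deposited signal column of scaled counts was not used.

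Counts were fitted here in edgeR 4.0.16 (R 4.3.3, limma 3.58.1) with a term for each of the 4 groups and for batch, TMM scaling, the package's filter on low counts (minimum 10) and a quasi-likelihood F test, two-sided, with Benjamini-Hochberg adjustment over 15916 genes. CPM are counts over the TMM-scaled library total, in its usual scale. Totals of 18214719 to 35001979 counts set the precision, and floors cover counting error only. TPM served to order genes. Alternatives were DESeq2 1.42.0 and its size factors, upper-quartile scaling, no filter or a stricter one (12 libraries), no batch term, only the groups compared, each batch alone, the study's threshold, RPKM for TPM and each library left out.

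Values and tests are written out for up to 20 called genes of largest change in each PA comparison, for genes past the study's threshold between the ASOs and, with fewer than 3 called, for the 3 of smallest p. Genes of other lists are named by smallest p, up to 3 per list. Genes described beyond this rule were chosen after their values were seen. The members, lists and tests were chosen with earlier results of these data known.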

Additional observations from a re-analysis of the deposited data

Results flagged for a closer look

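Dixon's test for an outlying library was run on log2 CPM, and the values below are printed in CPM. In 6 of 176 sets of 6 libraries (44 genes in 4 groups), 1 library lay farther from the others than its critical value allows. Chance flags about 1 set in 20. Mylk was at 3.84 CPM in Ctr BSA S9, with the others at 9.59 to 13.5 CPM. In Ctr PA, Thbs2 was at 0.0709 CPM in S3 (others 1.32 to 2.54), and S11 was low for Fbln5 (2.03 CPM, others 3.49 to 4.80) and for Bgn (8.33 CPM, others 19.5 to 27.9). Cspg4 was at 5.75 CPM in αGlu BSA S10 (others 12.003 to 18.5), and Mfap5 at 2.28 CPM in αGlu PA S8 (others 0.105 to 0.305).

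The PA response differed between the ASOs at an unadjusted p below 0.05 for Col12a1 (-1.39 on the log2 scale), Col8a1 (-1.45) and Col5a2 (-1.35), none of them after adjustment by edgeR. The αGlu effect under PA differed between the batches in the same way for Col15a1 (-2.71), Col3a1 (-5.28), Col5a2 (-1.91), Col12a1 (-1.58), Postn (-3.16), Col5a1 (-3.01), Col18a1 (-1.10), Col8a1 (-1.89) and Col6a2 (-3.43), again with none after adjustment.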

How the results depend on the processing

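No paired analysis was run, because the labels give the groups no shared replicate numbers and do not say which libraries share an animal. Any spread between animals therefore stays in the standard errors and p-values. With PA, 35 members were called in Ctr cells and 36 in αGlu cells, and leaving out 1 library gave 31 to 38 and 34 to 36, with medians of -2.10 to -1.67 and -2.52 to -1.996. Batch 2 alone gave 17 in Ctr cells. Here and above, counts from fits other than the main one and DESeq2 stand without the share of all tested genes in the same fit. They do not compare the members with other genes.

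Between the ASOs under PA, DESeq2 called 2 members, no filter 1, only the groups compared 1, batch 2 alone 1 and leaving out 1 library 0 to 1. By the study's threshold 7 passed, 14 in batch 2 alone, 15 without S4, S8 and S18 (chosen after seeing the data) and 6 to 12 without 1 library. The share of 0.773% of all tested genes belongs to the main fit only, so these counts do not show a stronger effect on the members. In BSA 2 passed it, 1 with no batch term, 1 with only the groups compared, 0 in batch 2 alone and 1 to 2 without 1 library. The medians ran from -0.57 to -0.10 under PA and from -0.48 to 0.12 in BSA.

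For the difference between the PA responses, 3 passed the study's threshold, 1 in batch 1 alone, 9 in batch 2 alone (median -1.14), 6 without S4, S8 and S18 and 0 to 5 without 1 library (median -0.55 to 0.03). In batch 1 alone Col8a1 (0.0413) and Col5a2 (0.0632) changed sign. Between batches, 4 members passed the study's threshold and 6 to 11 were called without 1 library. For the αGlu effect between batches, 9 passed it, 2 to 15 without 1 library (median -1.41 to -0.62). Without S4, S8 and S18, which leaves S12 as the single αGlu PA library of batch 1, assumed to vary like the others, 0 passed and the median (0.43), Col3a1 (0.43), Col12a1 (0.51), Col5a1 (0.27) and Col18a1 (0.17) changed sign. The causes were not tested.

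Genes near a few counts in some libraries (Lum, Mfap4, Mfap5, Dcn, Thy1, Thbs2, Col11a1, Pdgfra, Fbln1) are limited by depth.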
